A study of Mus musculus with 18 samples.

Results

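The 126 genes described here were the small nucleolar RNA (snoRNA) genes read in cultured medulloblastoma cells. They were selected on their own measured level, as every gene typed snoRNA in the table of the cells with at least 1 FPKM (fragments per kilobase of gene, scaled to library depth) in at least 3 of the 12 libraries. The table held 1507 snoRNA genes among 55183 genes. Of the snoRNA genes, 1193 were at 0 in every library, 142 were above 0 but never at 1 FPKM, and 46 reached 1 FPKM in only 1 or 2 libraries.

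All libraries came from the mouse line PTCP53 304, cells of a Sonic hedgehog (SHH) medulloblastoma, and every group carried the genotype Ptch1+/-; Trp53-/-. The groups were CT-179 for 24 h (day 1 of culture), vehicle for 24 h, CT-179 for 144 h (day 6) and vehicle for 144 h, with 3 libraries each. CT-179 is labelled as inhibition of OLIG2, a transcription factor of the oligodendrocyte and glial progenitor lineage. RNA was purified on RNeasy columns, made into libraries with a SMARTER mRNA-seq kit and read as paired ends of 100 bases. A single line was used, the labels do not say whether the 3 libraries of a group were separate cultures, and p-values therefore measure only the spread between these libraries. In bulk RNA of this kind, fewer cells of a type and less RNA per cell cannot be told apart.

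A snoRNA guides a protein complex to a place in ribosomal or spliceosomal RNA by base pairing. Box C/D snoRNAs direct the addition of a methyl group to a ribose through the methyltransferase fibrillarin, and box H/ACA snoRNAs direct the change of a uridine to pseudouridine through the synthase dyskerin. In mammals most snoRNAs lie in introns of host genes, many of which encode ribosomal proteins or translation factors, and are trimmed out of the spliced intron. Some hosts, such as Gas5 and Snhg1, encode no protein and carry several snoRNAs. Mature snoRNAs have no poly(A) tail, and a gene-level FPKM does not say whether a read came from the mature snoRNA, from unspliced RNA of its host or from an antisense transcript.

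The sequences of the 7 snoRNA genes of Gas5, the host with the most of the 126, are shown here. All 7 had log2 fold changes below 0 for CT-179 over vehicle at both times, as had 114 of the 126 in all. For Gm50452 the 24 h value follows from the rule, which it met in the vehicle libraries of 24 h alone. The sequences are given 5′ to 3′ on the gene's own strand as GENCODE M21 places them on GRCm38 (mm10). Capitals mark the letters searched: TGATG, the core of the C box, within the first 25 bases, and CTGA, the D box, within the last 15 bases. Gm50452 also holds ACA near its end.
Gm26224: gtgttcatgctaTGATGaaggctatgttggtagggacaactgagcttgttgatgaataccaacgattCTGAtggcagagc
Gm22489: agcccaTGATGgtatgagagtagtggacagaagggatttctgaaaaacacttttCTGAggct
Gm22357: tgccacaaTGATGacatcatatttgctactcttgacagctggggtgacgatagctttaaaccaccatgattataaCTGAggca
Gm23212: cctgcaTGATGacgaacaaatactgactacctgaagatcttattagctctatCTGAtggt
Snord78: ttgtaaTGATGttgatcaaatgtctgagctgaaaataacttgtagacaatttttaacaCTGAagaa
Gm50452: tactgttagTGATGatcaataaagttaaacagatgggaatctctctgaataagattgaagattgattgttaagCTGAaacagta
Snord80: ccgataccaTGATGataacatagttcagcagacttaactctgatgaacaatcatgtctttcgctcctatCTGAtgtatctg

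The other genes the comparisons turn on are Snord49a, Gm24494 and Gm25835, which carry the C/D letters, and Snora3, in which capitals mark ACA within the last 8 bases.
Snord49a: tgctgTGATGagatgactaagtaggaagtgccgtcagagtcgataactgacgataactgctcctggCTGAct
Gm24494: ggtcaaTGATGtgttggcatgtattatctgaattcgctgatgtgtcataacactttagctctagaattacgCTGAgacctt
Gm25835: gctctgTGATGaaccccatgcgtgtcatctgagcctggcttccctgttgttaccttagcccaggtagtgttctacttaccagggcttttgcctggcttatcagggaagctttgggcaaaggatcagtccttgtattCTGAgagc
Snora3: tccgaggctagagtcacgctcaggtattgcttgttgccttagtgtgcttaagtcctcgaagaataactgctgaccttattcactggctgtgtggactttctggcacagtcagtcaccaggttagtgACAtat

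By these letters, searched on the gene's own strand only, 53 of the 126 genes (42.1%) held the C/D pair alone, against 333 of all 1507 snoRNA genes (22.1%). The ACA triplet alone was in 53 (42.1%), against 691 of the 1507 (45.9%). Both sets were in 8, and 12 held neither, against 468 (31.1%) of the 1507. A match is a description and not a site. Median lengths were 76 bases for the C/D genes and 133 bases for the ACA genes.

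Most of the 126 genes lay inside a larger gene on the same strand, taken here as the host. A protein-coding host held 97 of them, of which 36 lay in 24 ribosomal protein genes and 61 in other genes. Noncoding hosts held 23. No host was found for 6: Snord104, Snora17, Snora43, Gm25604, Gm25076 and Gm22018. Of the 120 with a host, 60 lay wholly in an intron of its annotated transcripts, and 60 overlapped an exon of at least 1 of them. Within introns, the distance to the next host exon had a median of 149 bases for 25 C/D genes (quartiles 87 and 721), against 1250 bases for 25 ACA genes (168 and 1793).

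The reads behind these values were few. Single-exon snoRNA genes had FPKM values that were whole multiples of what 1 read is worth, all within 0.01 of a whole read, which put the libraries at 22250671 to 53336869 reads. A gene of 80 bases gained 0.234 to 0.562 FPKM per read. The 126 genes had a median of 5 reads per library, fewer than 5 in 61 genes and at least 10 in 26. Altogether they took 396 to 1550 reads in a library. Shared sequence is a further limit, since 30 of them share a run of 40 bases with another snoRNA gene, among them Snora3, Snord80, Snora73a and Snora73b, and reads could be split or lost between such copies.

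The rule used the levels themselves. At least 3 libraries at 1 FPKM were found among the 6 vehicle libraries for 118 genes and among the 6 CT-179 libraries for 66. The level of 1 FPKM was reached in vehicle libraries alone by 20 genes and in CT-179 libraries alone by none, so counts over the 126 are descriptions of genes chosen partly for their vehicle level. Gm24507 reached 1 FPKM in the vehicle libraries of 144 h alone, and Gm50452 and Gm22620 in those of 24 h alone. The differences of these 3 from the group concerned follow from the rule, and their values are given as a description. All 20 genes, these 3 among them, stay in the counts of calls, of signs and of groups that do not overlap. Just inside the threshold, the third-highest library held 1.03 FPKM for Snora68, 1.05 for Gm25107 and 1.06 for Gm24067. Just outside it, the value was 0.994 for Gm22661, 0.989 for Gm24412 and 0.980 for Snord37. A filter that does not depend on the group, a mean of at least 1 FPKM over all 12 libraries, kept 91 of the 126.

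One library stood apart. The second CT-179 library at 144 h correlated with its own group at 0.941 to 0.943 (Pearson, log2 values), whereas all other pairs within a group reached at least 0.996. It held more ribosomal protein RNA than the other libraries of its group, with 383 FPKM of Rpl27a against 189 and 194. It also enters the spread shared by all tests. Most counts of calls, and the values it moves most, are given with and without it. The rest come from the fit with all libraries. Of 10 SHH medulloblastoma markers, 7 passed the filter on low values. At 24 h the 10 summed to 183 to 185 FPKM in CT-179 and 185 to 188 in vehicle libraries. At 144 h the sums were 52.7 to 81.3 in CT-179 and 92.7 to 94.5 in vehicle libraries. Most single markers did not follow the sum. From 24 h to 144 h in vehicle, limma called 5 of the 7 higher and 1 lower, with a median log2 fold change of 1.32. Of all genes, 34.1% were called higher and 32.4% lower. The granule lineage factor Atoh1 was at most 0.0254 FPKM and Barhl1 at most 0.0115 in any library. Microglial markers summed to at most 0.0654 FPKM and endothelial markers to at most 0.204 in any library.

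Fewer snoRNA reads were found under CT-179 at both times. At 24 h the 126 genes took 23.3, 22.5 and 23.7 reads per 1000000 reads (RPM) in the CT-179 libraries, against 48.6, 45.8 and 45.1 in the vehicle libraries. The groups did not overlap, and the ratio of CT-179 (23.2 ± 0.613) to vehicle (46.5 ± 1.84, SD, n = 3 each) was 0.498. At 144 h the CT-179 libraries held 14.8, 11.6 and 10.8 RPM, against 27.2, 31.9 and 26.5 in the vehicle libraries, means of 12.4 ± 2.11 and 28.5 ± 2.90 (SD, n = 3 each) and a ratio of 0.434. Here too every CT-179 library was below every vehicle library.

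Lower sums were also found outside the 126 genes and without the most abundant of them. The 188 other snoRNA genes with any read took 3.51, 3.54 and 3.34 RPM in CT-179 libraries and 6.46, 6.64 and 7.42 in vehicle libraries at 24 h, a ratio of 0.506. At 144 h the same genes held 2.27, 1.59 and 1.72 in CT-179 and 4.19, 4.71 and 4.70 in vehicle libraries, a ratio of 0.411. Without the 5 genes with the most reads (Snora28, Snora65, Snord78, Snord104 and Snord52) the ratios of the 126 were 0.474 at 24 h and 0.411 at 144 h.

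**Figure D1:**
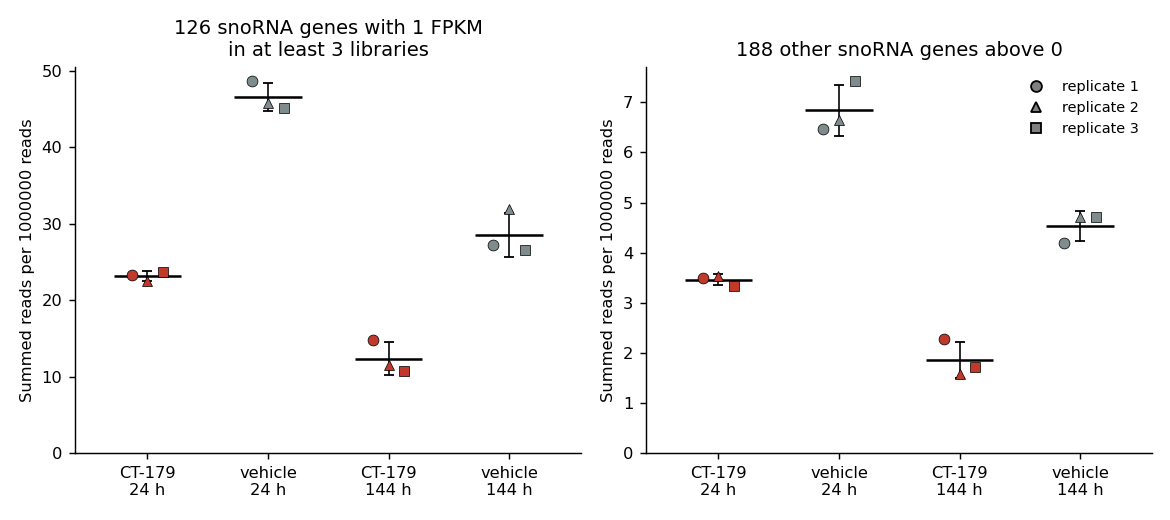
Summed reads per 1000000 reads (RPM) for the 126 snoRNA genes and over the 188 other snoRNA genes with reads, in each library (points, 1 shape per replicate number) with the group mean (bar) and SD (whisker, n = 3). In both sets the CT-179 libraries lie below the vehicle libraries at 24 h and at 144 h.

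Gene by gene, differences were tested with limma on log2(FPKM + 1), with Benjamini-Hochberg adjustment over the 12510 genes that passed the same filter. A fold change on this scale understates the change of low genes. At 24 h 6 of the 126 were lower under CT-179 and none was higher at an adjusted p under 0.05 (4.76%). Of all genes tested 33 were lower, a background of 0.264%, and none was higher. At an unadjusted p under 0.05, 63 of the 126 were lower and none higher, against 4.31% of all genes lower and 0.807% higher. The log2 fold change was below 0 in 122 (96.8%), against 55.1% of all genes. All 3 CT-179 libraries lay below all 3 vehicle libraries in 58 (46.0%), against 22.9% of all genes. The median log2 fold change was −0.65 over the 126 and −0.01 over all genes. Among the 91 genes kept by the mean over all libraries, 6 were lower, 90 were below 0 and the median was −0.82. The 24 h count was fragile. It ranged from 0 to 49 when 1 library at a time was left out, with 0 calls without any single CT-179 library of 24 h and 49 of 125 (39.2%, against a background of 14.1%) without the second CT-179 library of 144 h.

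At 144 h, 22 of the 126 were lower under CT-179 and none was higher (17.5%, against 3.37% of all genes lower and 0.512% higher). At an unadjusted p under 0.05, 56 were lower and 1 was higher, against 17.4% and 11.8% of all genes. The fold change was below 0 in 116 (92.1%), against 55.9% of all genes. The groups did not overlap in 58 that were lower (46.0%), against 27% of all genes, and in 1 that was higher, against 19.1%. The median log2 fold change was −0.70, against −0.05 over all genes. Among the 91 genes of the mean filter, 17 were lower and 85 below 0, with a median of −0.76. Leaving out each library in turn gave 5 to 40 calls, the lowest without the third vehicle library of 144 h and the highest without the CT-179 library that stood apart, where 40 of 125 (32.0%) were lower against a background of 16.9%. Without that library the limma test called 28 genes lower at both times, which is 57.1% of the 49 and 70.0% of the 40.

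With all libraries the calls shared by both times were Snord49a, Snord78, Gm23212 and Gm25835, 66.7% of the 6 and 18.2% of the 22. All 6 and all 22 were also called without the library that stood apart. The effect of CT-179 at 144 h minus that at 24 h was below an adjusted p of 0.05 for none of the 126 and for 0% of the 12510 genes (limma). At an unadjusted p under 0.05, 5 of the 126 were lower and 6 higher, against 2.87% and 1.72% of all genes. The fold change was below 0 at both times for 114 genes and above 0 at both times for 2.

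Snord49a, a box C/D snoRNA in an intron of the noncoding gene 2410006H16Rik (chr11:62603450-62603521, plus strand), had the lowest fold change at both times. At 24 h it was at 1.82, 0.447 and 0.749 FPKM in CT-179 libraries, against 8.27, 3.75 and 9.36 FPKM in vehicle libraries. The groups did not overlap, and the log2 fold change was −2.0 ± 0.32 (SE; limma adjusted p = 0.0435). At 144 h it was at 0.415, 0 and 0 FPKM under CT-179 and at 3.04, 3.05 and 4.67 FPKM in vehicle. That is 1 read against 26, a depth-scaled ratio of 0.0351 with a 95% counting interval of 0.000855 to 0.213 (limma adjusted p = 0.00833). The host stood at 91.2 ± 3.2 FPKM under CT-179 and 86.5 ± 5.8 in vehicle at 24 h, and at 169 ± 112 and 94.7 ± 7.5 FPKM at 144 h (SD, n = 3 each).

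The 7 snoRNA genes of Gas5, a noncoding gene on the plus strand (chr1:161034607-161038539) whose spliced RNA is degraded while it is translated, were all below 0 at both times. Gm50452 had to be so at 24 h, since it met the rule in the vehicle libraries of 24 h alone. Snord78 (chr1:161036984-161037049) held 9.09, 5.36 and 8.17 FPKM in CT-179 libraries at 24 h, against 29.0, 31.4 and 23.8 FPKM in vehicle libraries. At 144 h it held 3.63, 9.28 and 3.72 FPKM under CT-179 and 20.3, 16.2 and 14.8 FPKM in vehicle. The groups were apart at both times, with log2 fold changes of −1.79 ± 0.29 at 24 h and −1.56 ± 0.29 at 144 h (SE; limma adjusted p = 0.0435 and 0.0177).

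Gm23212 (chr1:161036682-161036741) held 5.94, 5.36 and 4.49 FPKM under CT-179 and 23.5, 15.0 and 18 FPKM in vehicle at 24 h, a log2 fold change of −1.65 ± 0.21 (limma adjusted p = 0.0209). At 144 h it held 4.99, 3.27 and 4.09 FPKM under CT-179 and 6.85, 11.5 and 10.2 FPKM in vehicle, a log2 fold change of −1.03 (limma adjusted p = 0.0245). No library of either CT-179 group reached a vehicle library of its time. Snord80 (chr1:161037601-161037681) held 2.55, 1.99 and 4.66 FPKM under CT-179 and 9.68, 9.27 and 11.1 FPKM in vehicle at 24 h (log2 fold change −1.49, limma adjusted p = 0.0435). At 144 h it held 1.85, 3.02 and 1.35 FPKM under CT-179 and 4.06, 5.81 and 4.90 FPKM in vehicle, which missed the threshold (log2 fold change −0.97, limma adjusted p = 0.0585).

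Gm22357 (chr1:161036057-161036139) passed only at 144 h, with 2.16, 1.18 and 1.97 FPKM under CT-179 and 4.95, 6.42 and 6.99 FPKM in vehicle, a log2 fold change of −1.37 (limma adjusted p = 0.0259). Its 24 h fold change was −0.85 (adjusted p = 0.505). Gm26224 and Gm22489 had 24 h log2 fold changes of −0.97 and −0.48 and 144 h log2 fold changes of −0.70 and −0.80, none past the threshold. The last of the snoRNA genes of Gas5, Gm50452, had −0.92 at 24 h, which is only a description. At 144 h it had −0.02, not past the threshold. Gas5 itself stood at 89.0 ± 0.579 FPKM under CT-179 and 90.9 ± 4.21 FPKM in vehicle at 24 h (SD, n = 3 each). At 144 h Gas5 held 108, 224 and 105 FPKM in CT-179 libraries and 96.9 ± 2.27 FPKM in vehicle, the value of 224 being that of the library that stood apart (log2 fold change 0.49, limma adjusted p = 0.18).

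**Figure D2:**
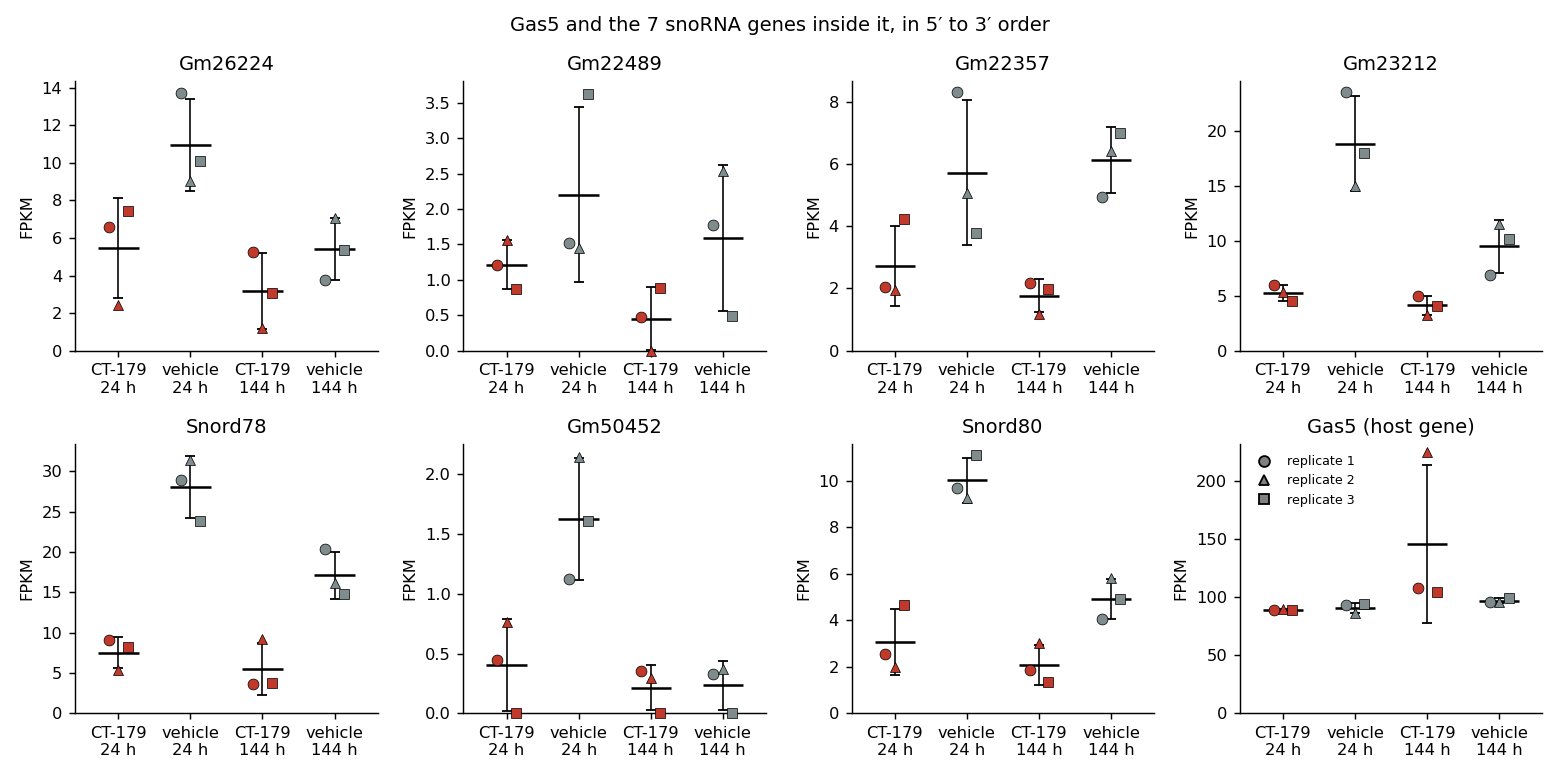
Levels in FPKM of Gas5 and its snoRNA genes in each library (points, 1 shape per replicate number) with group means (bars) and SD (whiskers, n = 3), by treatment and time. Snord78 and Gm23212 lie lower in CT-179 than in vehicle libraries at both times, whereas Gas5 lies at 86.1 to 108 FPKM in every library except the second CT-179 library at 144 h.

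Gm25835, in an intron of the translation initiation helicase gene Eif4a1 (chr11:69668852-69668995, minus strand), was the other gene called at both times. It held 0.260, 0.894 and 0.374 FPKM under CT-179 and 3.27, 2.50 and 1.56 FPKM in vehicle at 24 h (log2 fold change −1.18, limma adjusted p = 0.0435). At 144 h it held 0.415, 0.170 and 0.379 FPKM under CT-179 and 1.52, 1.96 and 1.70 FPKM in vehicle (log2 fold change −1.05, limma adjusted p = 0.0161). The groups were apart at both times. Gm25835 is among the 20 genes that reached 1 FPKM in vehicle libraries alone.

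Snora3, a box H/ACA snoRNA of the ribosomal protein gene Rpl27a (chr7:109520120-109520251, plus strand), was lower at 24 h but not at 144 h. At 24 h it held 1.28, 1.71 and 2.04 FPKM under CT-179, against 5.46, 4.32 and 4.43 FPKM in vehicle (log2 fold change −1.11 ± 0.17, limma adjusted p = 0.0352). At 144 h the groups overlapped, with 2.95, 1.49 and 2.07 FPKM under CT-179 and 2.28, 2.61 and 2.08 FPKM in vehicle (log2 fold change −0.09, limma adjusted p = 0.658). The 144 h effect minus the 24 h effect was 1.01 (limma adjusted p = 0.603). Without the library that stood apart this difference was 1.17 and passed (limma adjusted p = 0.010), as it did for 4 more of the 126: Gm25855 (1.63) and Gm22858 (1.16) were higher, and Gm24494 (−1.05) and Gm24507 lower, the last only as a description. The background was 1.2% higher and 1.46% lower over all genes.

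Several calls at 144 h were of genes that came near 0 under CT-179. Gm24494, in an intron of Rabggtb (a subunit of the enzyme that attaches geranylgeranyl groups to Rab proteins; chr3:153911610-153911690, minus strand), held 0.369, 0.302 and 0 FPKM under CT-179 and 2.71, 3.87 and 4.90 FPKM in vehicle. That is 2 reads against 31, a ratio of 0.0588 with a 95% counting interval of 0.00682 to 0.231, and the adjusted p was the smallest of the 126 (limma, 0.000725). At 24 h it held 3.70, 2.78 and 3.0 FPKM under CT-179 and 6.97, 7.79 and 6.66 FPKM in vehicle, groups that did not overlap but missed the threshold (limma adjusted p = 0.0616).

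Gm25945, in Khdc4, had no read in any CT-179 library at 144 h and 2.03, 2.32 and 1.13 FPKM in vehicle libraries, at least 9.14-fold lower against a floor of 3 reads over the group (limma adjusted p = 0.00341). Gm24507, in Tmem167, is counted among the 22 but met the rule through these vehicle libraries, so its values are a description: 0.223, 0 and 0.203 FPKM under CT-179 and 1.43, 2.34 and 2.05 FPKM in vehicle. Gm22027, in the splicing factor gene Sf3b4, held 0.236, 0.193 and 0 FPKM under CT-179 and 1.08, 1.98 and 2.65 FPKM in vehicle, a ratio of 0.0760 (0.0087 to 0.306, limma adjusted p = 0.00618). In each of these the treated libraries were all below the vehicle libraries. Snord21, in the ribosomal protein gene Rpl5, kept more reads, with 1.59, 1.04 and 0.870 FPKM under CT-179 and 4.37, 6.01 and 3.25 FPKM in vehicle at 144 h (log2 fold change −1.34, limma adjusted p = 0.0126). The other 12 of the 22 were Snora81, Gm24453, Gm27326, Gm25107, Gm26330, Snora52, Gm22988, Gm24455, Gm22362, Snora5c, Gm24067 and Snora70, with log2 fold changes of −1.31 (Snora81) to −0.74 (Snora70).

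Some of the most abundant snoRNA genes were not called with all libraries. Snora28, in the initiation factor gene Eif5, held 12.1, 11.9 and 12.3 FPKM under CT-179 and 15.8, 21.5 and 12.0 FPKM in vehicle at 24 h, groups that overlapped (log2 fold change −0.38, limma adjusted p = 1). At 144 h it held 10.6, 0.579 and 11.2 FPKM under CT-179 and 15.7, 16.3 and 18 FPKM in vehicle, the lowest value again in the library that stood apart (log2 fold change −1.54, limma adjusted p = 0.157). Without that library its 144 h log2 fold change was −0.57 and passed (limma adjusted p = 0.0216). Snord104, for which no host was found (chr11:106500993-106501062, plus strand), had log2 fold changes of −0.39 at 24 h and 0.05 at 144 h (adjusted p = 0.892 at 144 h). The 1 gene whose CT-179 libraries all lay above the vehicle libraries at 144 h was Gm22615, in Zfp934, with 1.28, 4.90 and 0.779 FPKM under CT-179 and 0, 0.448 and 0 FPKM in vehicle (log2 fold change 1.35, limma adjusted p = 0.156). The value of 4.90 is that of the library that stood apart, without which the log2 fold change was 0.83 (limma adjusted p = 0.208) and none of the 125 genes was higher at an unadjusted p under 0.05.

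**Figure D3:**
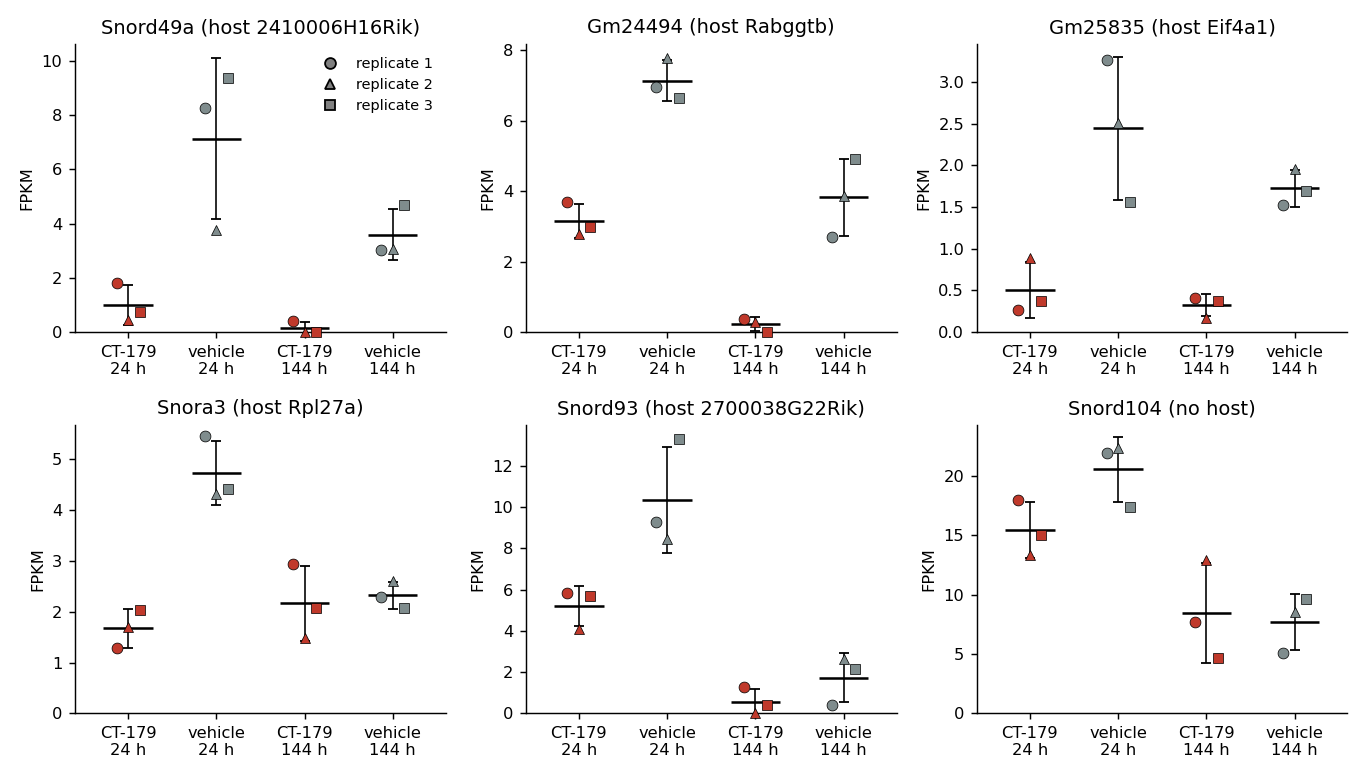
Levels in FPKM of Snord49a, Gm24494, Gm25835, Snora3, Snord93 and Snord104 in each library (points, 1 shape per replicate number) with group means (bars) and SD (whiskers, n = 3), by treatment and time. Snord49a and Gm25835 are lower under CT-179 at both times, Snora3 at 24 h, and Snord93 and Snord104 are lower at 144 h than at 24 h in vehicle and under CT-179.

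The other hosts with at least 3 of the 126 genes had few calls. The 6 snoRNA genes of Snhg1, a noncoding host, had 24 h log2 fold changes of −1.44 to −0.51, none called, and 144 h log2 fold changes of −1.24 to −0.05, of which Gm24453 passed (−1.24, limma adjusted p = 0.0445). Snhg1 itself held 23.1 ± 1.77 FPKM under CT-179 and 28.2 ± 0.632 FPKM in vehicle at 24 h, and 19.4 ± 9.42 and 15.1 ± 1.82 FPKM at 144 h (SD, n = 3 each). The 5 of Taf1d, a subunit of the factor that recruits RNA polymerase I, ranged over −1.37 to −0.48 at 24 h and −1.0 to −0.18 at 144 h, where Gm24455 passed (−1.0, limma adjusted p = 0.0344). Gm22620 of Taf1d met the rule in the 24 h vehicle libraries alone, so its 24 h value is only a description. In 4 hosts with 3 each, log2 fold changes ran from −1.62 to −0.21 at 24 h and −1.20 to −0.04 at 144 h for Rps12, −0.64 to −0.19 and −0.92 to 0.11 for Rpl4, −1.75 to −0.42 and −0.83 to −0.37 for Rpl17, and −1.18 to −0.21 and −1.31 to −0.52 for Eif4a2. Of these, Snora81 of Eif4a2 passed at 144 h.

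With all libraries, few of the hosts passed the test for CT-179. Of the 77 host genes tested, 1 was lower and none higher at 24 h, 43 were above 0, and the median log2 fold change was 0.02. At 144 h 1 was lower and the median was 0.17. Without the library that stood apart, 13 of the 77 were lower and 27 higher at 24 h, and 14 lower and 33 higher at 144 h, where the median was 0.08 (limma). The shares of all genes were then 14.1% lower and 8.08% higher at 24 h, and 16.9% and 11.8% at 144 h. The 24 ribosomal protein hosts were all above 0 at both times, with medians of 0.17 at 24 h and 0.56 at 144 h and none called. Their 144 h values include the library with more ribosomal protein RNA. Without it, 21 of the 24 were called higher at 24 h and 23 of 24 at 144 h, where the median was 0.22 (limma).

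The ratio of each snoRNA gene to its own host was tested in the same way over all 303 nested pairs of genes that passed the filter, which held 119 of the 126 in 77 hosts. At 24 h the log2 ratio was lower under CT-179 for 14 of the 119 and higher for none (11.8%, against 6.27% of all pairs lower). It was below 0 for 112, whereas 75.2% of all pairs were. The median was −0.66. The pairs called at 24 h included Snord49a (−2.08), Snord78 (−1.76 ± 0.22, limma adjusted p = 0.0020), Gm23212 (−1.62), Snord80 (−1.46) and Gm25835 (−1.32). At this time 9 pairs passed whose snoRNA gene did not pass by itself, led by Gm26202 in Rpl17 (−1.97), Gm23130 in Rps12 (−1.86) and Snord4a in Rpl23a (−1.62). The count of 14 was fragile too. Without any single library of 24 h it was 1 to 3, against 0.333% to 1.01% of all pairs. With a pseudocount of 0.1 it was 1, against 0.660% of all pairs.

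At 144 h the ratio was lower for 51 of the 119 and higher for none (42.9%, against 29% of all pairs lower and 1.65% higher), with 108 below 0 and a median of −0.89. Snord49a (−2.66), Gm24494 (−2.13, limma adjusted p = 0.00033), Rnu73b in Rps3a1 (−2.10) and Snord78 (−2.05, limma adjusted p = 0.00033) had the lowest values. The count was 23 of 36 in ribosomal protein hosts (median −1.19), 10 of 22 in noncoding hosts and 18 of 61 in other hosts. It was 24 of 59 for genes within introns and 27 of 60 for genes that overlap a host exon. Without the library that stood apart, 35 of 118 pairs were lower at 24 h and 33 at 144 h, against 23.5% and 23.2% of all pairs. The ribosomal protein hosts then held 12 of the 33, and Snord78, Gm24494 and Snord49a had log2 ratios of −2.07, −1.95 and −2.07 at 144 h, while Rnu73b missed the threshold (−1.39, limma adjusted p = 0.097). Across the 119 pairs the snoRNA and host log2 fold changes had a Pearson r of −0.02 and a Spearman rho of 0.00 at 24 h, and −0.06 and −0.02 at 144 h. Those points share 77 hosts and the same libraries and are a description only.

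**Figure D4:**
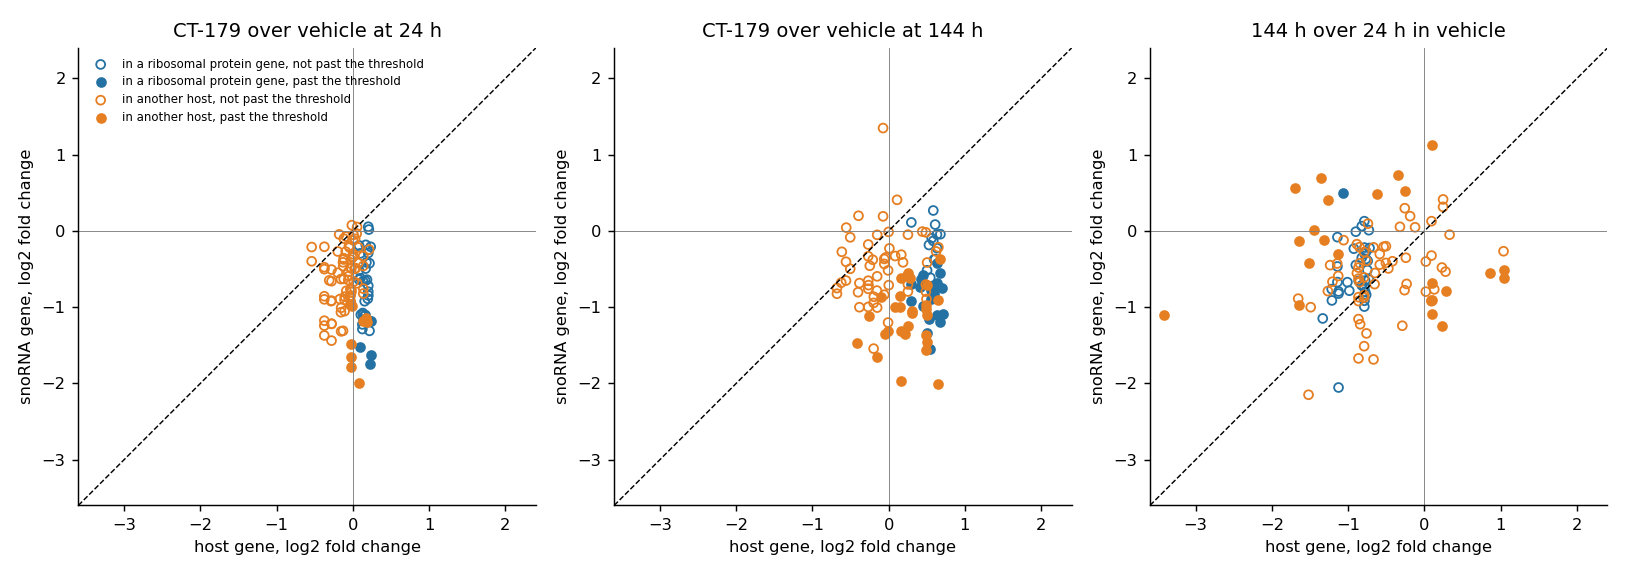
The log2 fold change of each snoRNA gene (vertical axis) against that of its host (horizontal axis) for 119 pairs, for CT-179 over vehicle at 24 h and at 144 h and for 144 h over 24 h in vehicle. The dashed line marks equal change, blue points lie in ribosomal protein genes, and filled points are pairs whose ratio passed the threshold. In the CT-179 comparisons most points lie below the line, and in the time comparison they lie on both sides of it.

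Over time in vehicle, 36 of the 126 were lower and 4 higher at 144 h than at 24 h (28.6% lower, against 32.4% of all genes lower and 34.1% higher). The median log2 fold change was −0.49, against 0.01 over all genes, and the summed reads at 144 h were 0.614 times those at 24 h. In the 91 genes of the mean filter, 30 were lower and 1 higher, with a median of −0.61. Under CT-179, 32 were lower and none higher (25.4%, against 32.1% of all genes lower and 33.2% higher), with a median of −0.40 and summed reads 0.534 times those at 24 h. Without the library that stood apart, 54 of 125 were lower and 5 higher in vehicle, and 39 lower and 2 higher under CT-179 (limma). Of all genes, 87.7% and 85.6% were then called in either direction. These 2 time comparisons share no library.

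Snord93, in the noncoding gene 2700038G22Rik, had the lowest fold change with time. In vehicle it held 0.386, 2.65 and 2.15 FPKM at 144 h, against 9.27, 8.46 and 13.3 FPKM at 24 h (log2 fold change −2.15, limma adjusted p = 0.000477). Under CT-179 it held 1.26, 0 and 0.384 FPKM at 144 h, against 5.81, 4.08 and 5.70 FPKM at 24 h (log2 fold change −2.07, limma adjusted p = 0.000632). Times did not overlap within either treatment, and the host fell by 1.52 on the log2 scale in vehicle.

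Gm22455, in the ribosomal protein gene Rpl4, held 0.772, 0.442 and 0.430 FPKM at 144 h and 6.62, 4.65 and 5.06 FPKM at 24 h in vehicle (log2 fold change −2.05, limma adjusted p = 0.000189). Its log2 fold change over time under CT-179 was −1.75, while the 24 h treatment difference was −0.19 (adjusted p = 1). Snord104 held 5.09, 8.51 and 9.60 FPKM at 144 h and 21.9, 22.3 and 17.3 FPKM at 24 h in vehicle (log2 fold change −1.33, limma adjusted p = 0.00257), and its change under CT-179 was −0.89 (limma adjusted p = 0.0239). Both genes were lower at 144 h in every vehicle library.

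With all libraries, the 4 counted higher at 144 h in vehicle were Gm25107 (0.74), Gm22362 (0.57), Gm26003 (0.53) and Gm24507. The last of these had to be higher, since it met the rule in the 144 h vehicle libraries alone. This comparison and that of CT-179 with vehicle at 144 h share those 3 vehicle libraries. Markers of other cell types also differed with time in vehicle. The summed mature oligodendrocyte markers held 2.96 to 3.36 FPKM at 144 h and 0.602 to 0.688 FPKM at 24 h. Of these 4 genes, 3 were below 1 FPKM in every library, 1 of them at 0 throughout, and only 1 passed the filter. Fibroblast markers held 27.9 to 28.7 FPKM at 144 h and 12.1 to 13.5 FPKM at 24 h, and neuron markers 10.3 to 11 and 5.07 to 5.56 FPKM. Their part in the time differences was not tested.

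Relative to the hosts, the time comparison in vehicle went both ways. The ratio to the host was lower at 144 h for 8 of the 119 (6.72%, against 16.5% of all pairs) and higher for 15 (12.6%, against 15.5%), with a median of 0.24. It was below 0 for 41 of the 119. Without the library that stood apart, it was lower for 15 of 118 and higher for 20 (limma), when 47.0% of all pairs were called in either direction. These values depend on the pseudocount of 1, which understates the change of low genes more than that of abundant hosts. With a pseudocount of 0.1, 1 pair was lower and 5 higher, 56 were below 0 and the median was 0.05 (limma). The hosts themselves fell, with 59 of 77 lower, 3 higher and a median of −0.78, and all 24 ribosomal protein hosts were lower (median −0.81). Of all genes, 32.4% were lower and 34.1% higher. Gm22806, in Cks2, a small subunit of cyclin-dependent kinases, rose by 2.31 relative to a host that fell by 3.41. Gm22362, in Ybx3, rose by 2.26 relative to a host that fell by 1.69. Among the 8 lower pairs were Snord80 (−0.99) and Snord78 (−0.78) of Gas5, whose own change was 0.09, and Gm24201 (−1.65) and Snora81 (−1.56) of Eif4a2, which rose by 1.04. Gm50452 of Gas5 is also counted among the 8. It met the rule in the 24 h vehicle libraries alone, so its fall is only a description.

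With all libraries, none of the 4 box C/D core genes tested (Fbl for fibrillarin, Nop56, Nop58, Snu13) and none of the 4 box H/ACA core genes (Dkc1 for dyskerin, Gar1, Nhp2, Nop10) was called at 24 h or 144 h, and the C/D medians were 0.00 and 0.18. No call was made among 13 assembly factors, 9 processing factors or 10 genes of nonsense-mediated decay at either time, the decay list having medians of −0.09 and −0.27. Without the library that stood apart, 1 C/D core gene was lower and 1 higher at each time, and 1 H/ACA core gene was higher at 24 h (limma). Of the assembly factors 1 was lower and 1 higher at 24 h and 2 were higher at 144 h. Processing genes were lower in 3 cases at 24 h and 2 at 144 h, and decay genes in 2 and 4, with the backgrounds given for the hosts. With time in vehicle, all 8 core genes were lower, as were 10 of the 13 assembly factors, against 32.4% of all genes (limma). Without the library that stood apart all 13 assembly factors were lower, when 5409 of 12459 genes were. Fbl stood at 54.4 ± 0.5 FPKM at 144 h and 169 ± 4.7 FPKM at 24 h (SD, n = 3 each; log2 fold change −1.62), and Dkc1 had a log2 fold change of −1.81.

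Other short or intronic gene types are given beside the 126, since their reads come from the same libraries. Of 74 miRNA genes that passed the filter, 1 was lower at 24 h (median −0.37) and 13 at 144 h (median −0.49), none higher. Without the library that stood apart, 15 of 73 were lower and 1 higher at 24 h, and 21 lower and 2 higher at 144 h. The 15 genes typed sense intronic, which lie in introns of other genes, had none called at 24 h (14 below 0, median −0.31) and 10 lower at 144 h (median −0.70), and 2 lower and 11 higher with time in vehicle (median 0.50). Without the library that stood apart, 9 of the 15 were lower at 24 h and 11 at 144 h. Of all genes, 0.264% were lower at 24 h and 3.37% at 144 h with all libraries, and 14.1% and 16.9% without that library. With time in vehicle, 32.4% of all genes were lower and 34.1% higher. The 1137 shortest protein-coding genes, of at most 1874 bases, had medians of 0.10 at 24 h and 0.37 at 144 h, the second being 0.11 without the library that stood apart. Levels of unspliced host RNA were not measured by these files, and the part of RNA type, gene length or unspliced RNA in the snoRNA differences was not tested.

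**Figure D5:**
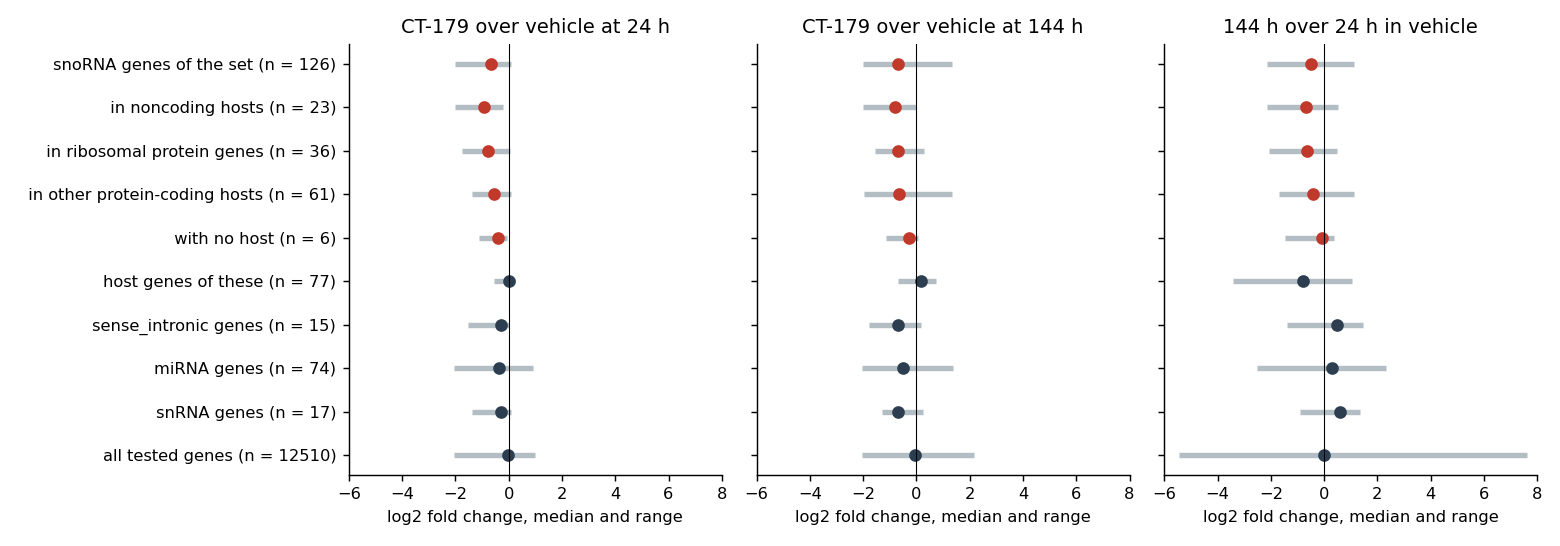
Median (point) and full range (bar) of the log2 fold change for the 126 snoRNA genes, their hosts, other gene types and all genes, for CT-179 over vehicle at 24 h and 144 h and for 144 h over 24 h in vehicle. The snoRNA medians are −0.65, −0.70 and −0.49, and those of the miRNA, snRNA and sense intronic genes are below 0 for CT-179 and above 0 with time.

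By the letters searched, 5 of the 53 C/D genes were lower at 24 h (median −0.79) and 9 at 144 h (median −0.70). These letters do not always follow the gene name, since 2 genes named Snord held ACA alone and 5 held neither. Of the 53 ACA genes 1 was lower at 24 h (median −0.48) and 10 at 144 h (median −0.62). Of all genes, 0.264% were lower at 24 h and 3.37% at 144 h. These class counts come from the fit with all libraries. Without the library that stood apart, 49 of 125 were lower at 24 h and 40 at 144 h, against 14.1% and 16.9% of all genes. By host, the 24 h and 144 h medians were −0.92 and −0.79 for 23 genes in noncoding hosts, −0.76 and −0.69 for 36 in ribosomal protein genes, −0.54 and −0.65 for 61 in other protein-coding genes, and −0.41 and −0.28 for the 6 with no host. The differences between these classes were not tested.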

How the data were processed

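Expression was measured by RNA sequencing in 12 libraries of cells, and the table of whole brains was not analysed here. The authors deposited FPKM per gene and library. The submitters' processing notes name the genome mm10, R 3.6 with edgeR 3.28.1, HTSeq 0.6.1p2, Trim Galore 0.5.0 and STAR 2.6.0c. The annotation and the strand of counting are not given in the sources used here. Reads here are longer than many snoRNA genes, so counts of these genes depend on how reads that overlap a host were assigned.

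The 12510 genes that reached 1 FPKM in 3 or more libraries entered 1 limma fit (limma 3.58.1, R 4.3.3) of log2(FPKM + 1) with 1 mean per group, a variance trend and Benjamini-Hochberg adjustment, with a threshold of 0.05. Ratios to hosts were fitted likewise over 303 pairs. Reads were recovered from single-exon genes. Ratios of few reads have exact intervals, which cover counting error only. Tables were handled with pandas 2.3.3 and scipy 1.17.1. The fits were tested on simulated data with 200 changed genes.

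The snoRNA genes and the comparison lists were chosen with earlier results of these data known. Genes named were Snord49a, Snord78, Snord80 and Snora3, up to 8 of the largest calls in each direction and comparison, those in hosts with at least 3, their hosts and those nearest the threshold. One host with 3 is not reported here. Libraries of the same number correlated at 0.109, 0.241 and 0.138 between CT-179 at 144 h and at 24 h, on a scale other than that of the library correlations above. The labels give replicate numbers and state no pairing, and the fit reported here was unpaired. A replicate block gave 31 calls in place of 32 for this comparison. Alternatives changed the pseudocount, filter, scaling, weights, block, groups fitted and libraries.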

Additional observations from a re-analysis of the deposited data

How the results depend on the processing

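Few reads per gene and 3 libraries a group limit these results, and the direction of the CT-179 differences was steadier than the number of calls. Counts of the 126 genes called in limma fits differed most under these settings, and the cause was not tested. For CT-179 at 24 h the 6 calls became 2 with a pseudocount of 0.1 (0.192% of all genes), 1 with no filter (0.134%) and 2 with median-of-ratios scaling (0.160%). Array weights, whose estimation stopped before it converged, gave 58. A fit of the 24 h libraries alone called 47 of the 106 it tested. A replicate block gave 0 calls, against 0.0160% of all genes, and 60 at an unadjusted p under 0.05. The labels do not say what libraries of the same number share. Of all genes, 26.5% were called with array weights and 17.4% in the separate fit. At 144 h the 22 calls became 66 with array weights (47.9% of all genes) and 19 with the replicate block (2.41%). A fit of the 144 h libraries alone called 0 of 11958 genes. It tested 78 of the 126, of which 44 had an unadjusted p under 0.05. The difference between times gave 0 calls, and 8 with array weights (9.84% of all genes). Time in vehicle gave 40 calls, 24 with a pseudocount of 0.1 (65.4% of all genes) and 43 with the block (65.7%). Array weights gave 66 (88.1% of all genes, against 52.4% of the 126). Time under CT-179 gave 32, against 21 with no filter (33.4% of all genes) and 58 with array weights (89.2%). Relative to the host at 24 h, the 14 calls became 1 with a pseudocount of 0.1, 1 with no filter, 23 with a mean filter, 6 with the block, 45 with array weights (30.4% of all pairs) and 37 in the separate fit (32.1%). At 144 h the 51 became 22 of 120 with no filter (2.39% of all pairs) and 21 of 72 in the separate fit (13.8%). Over time the 23 became 6 with a pseudocount of 0.1 (17.2% of all pairs), 12 of 85 with a mean filter (32.3%) and 37 with array weights (48.8%). Leaving out 1 library at a time gave 0 to 49 calls at 24 h, 5 to 40 at 144 h, 0 to 5 for the difference between times, 29 to 59 over time in vehicle, 22 to 41 over time under CT-179, and relative to the host 1 to 35 at 24 h, 24 to 54 at 144 h and 13 to 35 over time. The log2 fold change of Snora3 at 144 h was −0.27 without the first and reversed to 0.067 (adjusted p = 0.75) without the second CT-179 library of 144 h. With TPM scaling the 144 h median over all genes was −0.20, against −0.05, and the test called 27 of the 126 lower. The comparison in brains was not run.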
